A study of Mus musculus with 8 samples.

Results

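TADs that Arrowhead placed at matching positions, within 25 kb at both ends, in lens fiber cells, lens epithelium and mouse ES cells numbered 655. They were chosen by TAD position alone. A TAD of the lens fiber list on chromosomes 1 to 19 was taken when the lens epithelium list and the ES cell list each held a TAD with both ends within 25 kb of its own. The fiber list held 2628 TADs on these chromosomes, so that 24.9% were found in all 3 lists. Hi-C was done with 2 replicates each of v6.5 ES cells (a wild-type line grown without feeders and with LIF) and of lens epithelium and lens fibers microdissected from CD-1 mice at postnatal day 0.5. Each lens replicate pooled the epithelium or the fibers of 30 microdissections, the ES cells were 1 line, and all were crosslinked in 2.0% formaldehyde. The study's methods give the ES cell line as male and of a mixed strain background. Strain and cell type therefore differ together between ES cells and lens, and cannot be told apart here. CTCF ChIP-seq was done on lens epithelium and lens fibers from 200 lenses of the same strain and age. The labels list 1 CTCF sample and 1 peak list per tissue, while the study's methods give 2 biological replicates, and how these were joined is not given in the sources used here. The authors merged the Hi-C replicates before calling TADs and loops, so each cell type had 1 list and no replicate error could be given. Every 95% interval below covers counting error among regions only, and no test was made.

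A TAD is a stretch of chromosome whose parts contact each other more often than they contact the sequence beyond its borders. In the loop extrusion model, cohesin reels in DNA until it meets CTCF, a zinc finger protein bound to a directional motif, and pairs of CTCF sites facing each other then form the base of a chromatin loop. Many TAD borders carry CTCF and many also coincide with gene starts, and genes together with their enhancers often lie within the same TAD. Lens epithelial cells divide and, at the lens equator, become fiber cells, which fill with crystallins and later lose their organelles. ES cells served as the undifferentiated state.

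Promoter sequences at the borders of TADs found in all 3 lists are shown first, because they are the places where the bases under a border CTCF site could be read. RefSeq promoters of the build GRCm38.p6 (the mm10 of the deposited lists) were taken, and only the 250 bases before each gene start were searched. Both strands were searched for AGGNGGCA and AGGNGGCG, which are the core of the CTCF motif and differ in the last base only. The 6 shown are the 3 at left borders and the 3 at right borders with the strongest fiber CTCF peak, among those with a corner loop in all 3 loop lists with the motif letters within 50 bases of the peak summit, and with at least 50 of the 60 bases around the motif inside the window. The left border promoter of Man2b2 (15.5-fold) met all but the last condition, with 34 bases inside, and is not printed. Capitals mark the 8 motif letters, or their complement where the motif lies on the other strand, and each is printed 5′ to 3′ along the strand of the gene.

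Rai1, left border, + strand, chr11:60104877-60104936: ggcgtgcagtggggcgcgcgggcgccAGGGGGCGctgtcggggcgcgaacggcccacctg
Gm32898, left border, - strand, chr10:94623751-94623810: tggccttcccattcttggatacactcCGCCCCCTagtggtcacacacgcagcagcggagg
Vps13d, left border, - strand, chr4:145195065-145195124: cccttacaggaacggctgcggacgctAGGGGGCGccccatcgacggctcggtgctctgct
Pts, right border, - strand, chr9:50528777-50528836: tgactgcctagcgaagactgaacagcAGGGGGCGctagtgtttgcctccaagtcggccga
Gosr1, right border, - strand, chr11:76763648-76763707: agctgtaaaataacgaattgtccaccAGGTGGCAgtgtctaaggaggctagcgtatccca
Mapk9, right border, + strand, chr11:49846559-49846618: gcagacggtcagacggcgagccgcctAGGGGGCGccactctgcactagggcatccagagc

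The Rai1 promoter had the strongest of these sites, with a fiber CTCF fold enrichment of 18.1 and the summit at the motif itself. Its TAD spans 90 kb, chr11:60100001-60190000. The Gm32898 site (14.3-fold) lies at the left border of the 340 kb TAD of Cep83 and Plxnc1 described below. Vps13d reached 10.1-fold, Pts 9.08-fold, Gosr1 8.01-fold and Mapk9 7.96-fold. Each except that of Mapk9 overlapped a CTCF peak of lens epithelium as well. The right border near Mapk9 also had a stronger fiber summit outside the printed bases, 9.53-fold at 49845168. An epithelium summit stood beside that one, at 49845169.

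Near borders of TADs found in all 3 lists (within 10 kb), 784 promoters lay, and 55 of them (7.02%, 5.43 to 9.02) had a fiber CTCF summit in the 250 bases. The share was 5.17% (4.26 to 6.27) near borders of the other fiber TADs and 2.66% (2.48 to 2.85) near no fiber border. The motif letters occurred in 27 of those 55 promoters, or 49.1% (36.4 to 61.9). They occurred in 46.4% of promoters with a summit at other fiber borders, in 48.8% of those with a summit away from borders, and in 16.1% of all 31365 promoters searched. Motif letters under a promoter summit were thus about as frequent at these borders as elsewhere. Promoters that share a summit at the same TAD were counted once for the strand, which leaves 26. At left borders the letters lay on the + strand in 10 promoters and on the - strand in 7. At right borders they lay on the + strand in 3 and on the - strand in 6. These numbers are small, and a match is a description of the letters and not of binding.

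The 655 TADs made up 36.6% of the 1789 epithelium TADs and 18.3% of the 3575 ES cell TADs on chromosomes 1 to 19. Each had 1 match in each list, and no epithelium or ES cell TAD served as the nearest match of more than 1 of them. The other fiber TADs comprised 633 matched in the epithelium list alone, 525 matched in the ES cell list alone and 815 matched in neither. On single chromosomes the share found in all 3 lists went from 13.9% on chromosome 12 (16 of 115) to 33.7% on chromosome 19 (31 of 92). Chromosome 11 held the largest number, with 65 of 208.

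Sizes of TADs found in all 3 lists fell into separate ranges. In fiber cells 397 of them were between 60 and 160 kb and 258 were between 305 and 1585 kb, with none between these ranges. The median was 120 kb (mean 259 kb), against 140 kb (mean 312 kb) among the other fiber TADs. The median of fiber TADs matched in the epithelium list alone was 370 kb, and that of those matched in the ES cell list alone was 120 kb. The whole fiber list is thin in this range, with 39 of 2628 TADs between these sizes. Size is therefore reported below as 2 classes, under 200 kb and 200 kb and over, and a median over both says little about either.

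Within the limit of 25 kb, the positions usually agreed far more closely. List positions come in steps of 5 kb. Both ends were the same in fiber cells and epithelium for 104 of the 655 TADs, and both moved by at most 5 kb for 363 (55.4%). Between fiber cells and ES cells, both ends were the same for 47 and moved by at most 5 kb for 255 (38.9%). The mean shift of an end was 5.58 kb to epithelium and 7.20 kb to ES cells. The epithelium TAD was the smaller in 338 cases and the larger in 164, while the ES cell TAD was the larger in 393 and the smaller in 178. Across both other lists, all ends lay within 5 kb for 156 of the 655 TADs and within 10 kb for 322. Only 15 TADs had the same ends in all 3 lists.

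Those 15 TADs were named after their positions were seen. They ranged from 75 to 785 kb. The smallest, chr10:62105001-62180000, held Fam241b and Neurog3, a proneural transcription factor gene. It had fiber CTCF at both borders (8.26-fold on the left, 9.31-fold on the right) and a corner loop at 3.91 observed over expected contacts in fiber cells, 3.88 in epithelium and 7.14 in ES cells. The largest, chr11:108430001-109215000, held Axin2, a feedback inhibitor of Wnt signalling, as its sole whole protein-coding gene. No fiber CTCF summit lay within 10 kb of either of its borders, and of the 3 loop lists only that of epithelium had a corner loop there, at 5.54. Identical calls thus occurred both with and without a fiber CTCF summit within 10 kb of the borders.

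CTCF was counted at the borders next, since ChIP-seq was not part of the choice of TADs. A peak is given by its summit, the base of highest enrichment. In fiber cells, 314 of the 655 TADs (47.9%, 44.1 to 51.8) had a CTCF summit within 10 kb of both borders, 272 had one at 1 border and 69 (10.5%) at neither. Among all 2628 fiber TADs the share with a summit at both borders was 38.1%. Among the 1973 others it was 34.8% (32.8 to 36.95), so that the share was 1.38 times as high in TADs found in all 3 lists (1.25 to 1.52). The CTCF list of lens epithelium gave 175 of 655 TADs (26.7%, 23.5 to 30.2), with 18.5% over all fiber TADs and 15.8% among the others. That is a ratio of 1.70 (1.44 to 2.00). The epithelium list is shorter, with 15799 peaks against 23132 on these chromosomes, so the levels of the lists are not comparable with each other. No CTCF list of ES cells was used.

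The difference stood in both size classes. Under 200 kb, 55.4% of TADs found in all 3 lists had fiber CTCF at both borders, against 40.5% of the others (ratio 1.37, 1.22 to 1.53). At 200 kb and over the shares were 36.4% and 27.2% (1.34, 1.10 to 1.63). The corresponding ratios for epithelium CTCF were 1.74 (1.43 to 2.12) and 1.56 (1.16 to 2.09). By chromosome, the fiber CTCF share was higher on 18 of 19, the exception being chromosome 12 with 18.8% of 16 TADs (median size 352.5 kb) against 31.3% of the others. The epithelium CTCF share was higher on 16 of 19, not on chromosomes 1, 12 and 14.

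TADs matched in 1 further list took a middle place. Under 200 kb, fiber CTCF lay at both borders of 48.3% (41.5 to 55.1) of TADs shared with epithelium alone, 45.2% (40.6 to 49.8) of those shared with ES cells alone and 33.0% (29.0 to 37.3) of those found in fiber cells alone. At 200 kb and over these shares were 32.6%, 29.3% and 19.6%. The intervals of TADs found in all 3 lists overlapped those of TADs shared with epithelium alone in both classes, and those of TADs shared with ES cells alone at 200 kb and over. The intervals of TADs found in fiber cells alone lay below those of TADs found in all 3 lists in both classes.

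**Figure D1:**
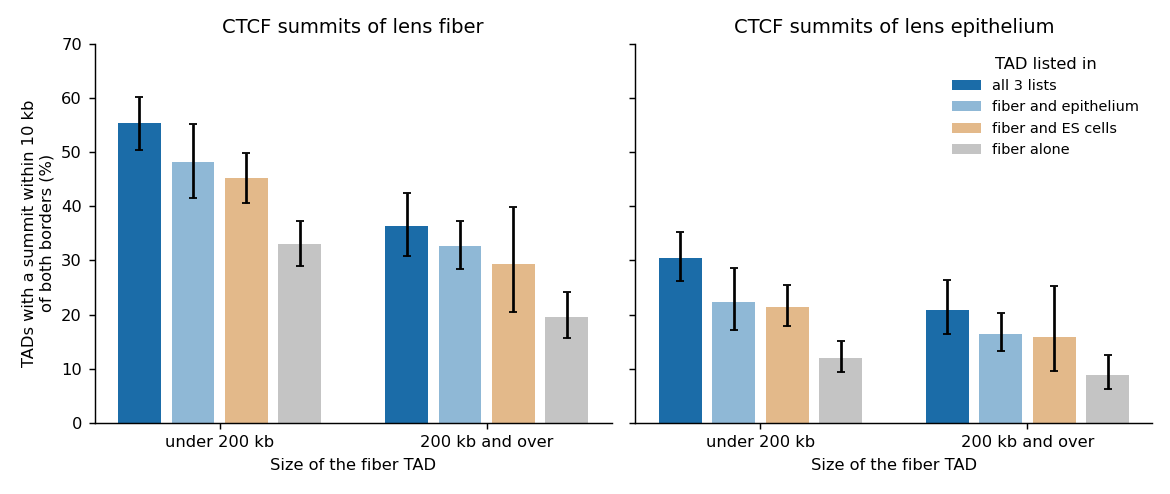
Share of fiber TADs with a CTCF summit within 10 kb of both borders (y axis, %), by size of the fiber TAD (x axis) and by the lists that hold the TAD (colors), for CTCF of lens fiber (left) and lens epithelium (right); error bars are 95% Wilson intervals. TADs in all 3 lists stand highest in each group, at 55.4% and 36.4% for fiber CTCF, and those in the fiber list alone lowest, at 33.0% and 19.6%.

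Among TADs found in all 3 lists, CTCF was also more frequent where positions agreed most closely. With all ends within 5 kb, 96 of 156 (61.5%, 53.7 to 68.8) had fiber CTCF at both borders. The share was 46.4% at a largest end distance of 10 kb, 43.4% at 15 kb, 43.9% at 20 kb and 38.2% (28.1 to 49.4) among the 76 TADs just inside the limit, at 25 kb. Just outside the limit, at 30 kb, it was 40.0% (24 of 60, 28.6 to 52.6). Median sizes were 125 kb just inside and 132.5 kb just outside. Corner loops of fiber cells were found for 60 of the 76 and 39 of the 60. The intervals of the CTCF shares on either side of the limit overlap almost whole.

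**Figure D2:**
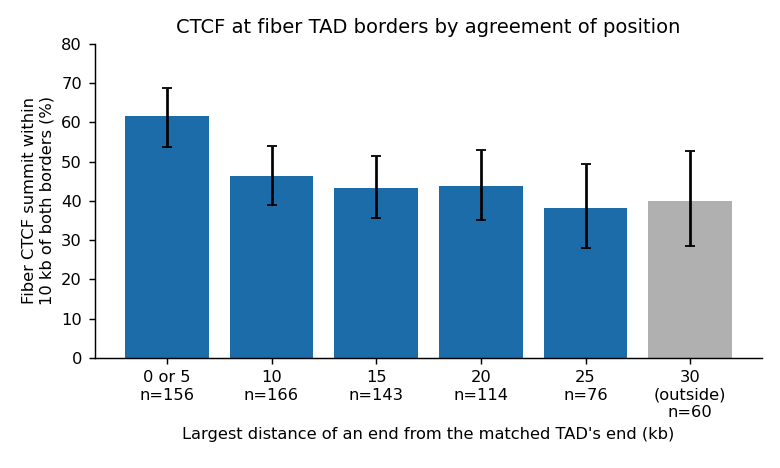
Share of fiber TADs with a fiber CTCF summit within 10 kb of both borders (y axis, %) by the largest distance of an end from the matched end in the epithelium or ES cell list (x axis, kb); blue bars are TADs in all 3 lists, the gray bar those just outside the limit, error bars 95% Wilson intervals. The first bar, at 61.5% of 156 TADs, stands above the rest, which lie between 38.2% and 46.4%.

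CTCF was concentrated within a few kb of the borders and was sparse in the middle of these TADs. Within 10 kb of a border there were 48.9 fiber summits per Mb, and within 10 kb of the midpoint 6.72, a ratio of 7.28 (5.87 to 9.04). Among the other fiber TADs the ratio was 6.13 (5.39 to 6.98), which overlaps, and 7.645 in those of them matched in the ES cell list alone. Epithelium summits gave 31.6 and 4.05 per Mb, a ratio of 7.82 (5.92 to 10.3) against 5.03 (4.33 to 5.85). TADs of 200 kb and over differed most. There the midpoint regions of TADs in all 3 lists, 5.16 Mb in total, held 19 fiber summits (3.68 per Mb, 2.22 to 5.75) and 10 epithelium summits (1.94 per Mb, 0.929 to 3.56). Those of the others held 5.77 (4.68 to 7.04) and 5.17 (4.14 to 6.38) per Mb, so that the intervals separate for epithelium CTCF and overlap for fiber CTCF. Of the others, TADs matched in the ES cell list alone were sparse there too, with 1 fiber and 4 epithelium summits in 1.64 Mb (0.610 and 2.44 per Mb). Those matched in the epithelium list alone held 7.52 and 6.02 per Mb, and those in fiber cells alone 4.74 of each. Under 200 kb the border to middle ratio of fiber CTCF was 6.37 in TADs of all 3 lists against 6.33 in all the others.

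In TADs found in all 3 lists, the density peaked just inside the border. In TADs of 200 kb and over found in all 3 lists, fiber summits reached 55.0 per Mb in the first 5 kb inside, against 38.0 in the last 5 kb outside. In the smaller TADs these densities were 66.8 and 60.5 per Mb. Between 95 and 100 kb outside the border the density was 18.9 per Mb for smaller and 14.0 per Mb for larger TADs. The inward offset was seen at the left side, where 273 of 433 strongest fiber summits (63.0%) lay inside the TAD. At the right side 234 of 467 (50.1%) did. The other fiber TADs had the same difference between sides, with 57.6% inside at the left and 48.0% at the right. In the smaller of these others the fiber density was 48.2 per Mb in the first 5 kb inside and 49.4 in the last 5 kb outside. In the larger of these others it was 40.2 per Mb inside and 31.6 outside. A peak just inside the border was thus not particular to TADs found in all 3 lists.

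**Figure D3:**
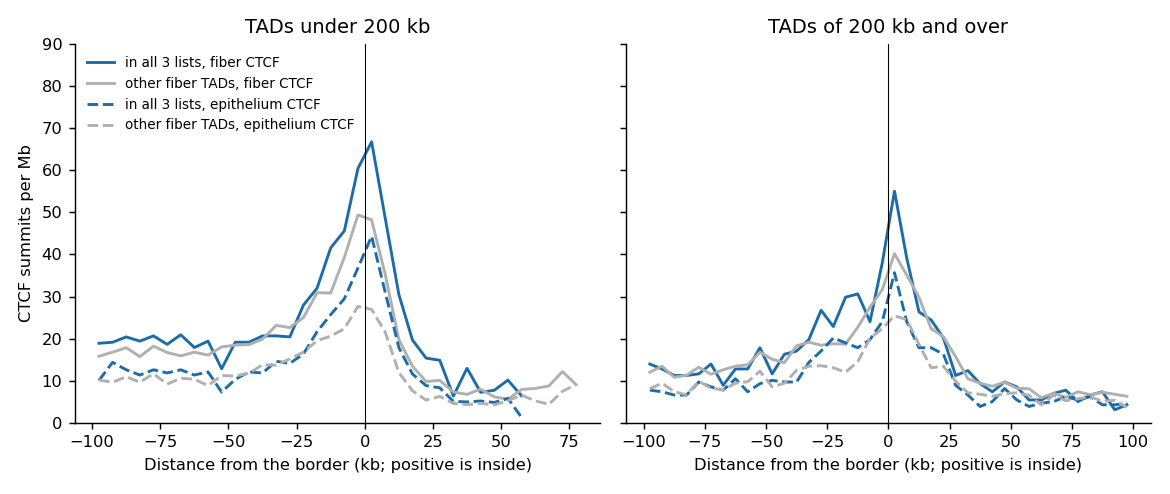
CTCF summits per Mb (y axis) in 5 kb steps of distance from a fiber TAD border (x axis, kb, positive inside and up to the midpoint), for TADs in all 3 lists (blue) and other fiber TADs (gray), with fiber CTCF as solid and epithelium CTCF as dashed lines. All curves peak within 5 kb of the border, and the blue fiber curve peaks at 66.8 per Mb for TADs under 200 kb and 55.0 per Mb for larger ones.

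The strength of border peaks was also compared. At the 1310 borders of TADs in all 3 lists, 900 had a fiber summit, and the strongest there had a median fold enrichment of 7.86. It was 7.69 at the other fiber borders and 6.45 over all fiber peaks. The border values take only the strongest peak of each border, while the last takes every peak. Picking the strongest raises the border values, so only the border groups are like measures. An epithelium peak overlapped 62.0% (58.8 to 65.1) of these strongest border peaks and 56.3% (54.3 to 58.4) of those at other fiber borders. It overlapped 49.96% (49.3 to 50.6) of all fiber peaks, a share again taken without picking the strongest. Border peaks overlapped in epithelium were the stronger ones in fiber cells, with a median of 8.81-fold against 6.39-fold for those listed in fiber cells alone. The same held at the other fiber borders (8.71-fold against 6.49-fold) and over all fiber peaks (7.65-fold against 5.68-fold).

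Chromatin loops come from the same Hi-C maps as the TADs, but from another caller, HiCCUPS. A corner loop is one whose anchor midpoints lie within 25 kb of both borders of a TAD in the same cell type. Of the 655 TADs, 482 (73.6%, 70.1 to 76.8) had a corner loop in fiber cells, beside 58.9% of all fiber TADs and 54.0% of the others. For epithelium and ES cells the matched TADs of their own lists were used, and the others are the remaining TADs of that list. In epithelium 508 (77.6%) had one, beside 62.7% of all and 54.1% of the others. In ES cells 442 (67.5%) had one, beside 48.3% of all and 43.9% of the others. The ratios to the others were 1.36 (1.28 to 1.45), 1.44 (1.34 to 1.54) and 1.54 (1.44 to 1.64), and the share was higher on 18, 18 and 19 of 19 chromosomes. Both size classes gave the same direction in all 3 lists. The exception was the anchor width: counting only loops with 25 kb anchors, 5.50% of the 655 TADs had a fiber corner loop, and the ratio turned to 0.653.

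A corner loop in every list was found for 350 of the 655 TADs (53.4%), and none in any list for 79 (12.1%). A further 84 had it in both lens lists and not in the ES cell list, and 20 in the ES cell list alone. Among the 350, the median of observed over expected contacts was 3.51 in fiber cells (quartiles 2.80 and 4.34), 3.99 in epithelium (3.09 and 4.89) and 3.77 in ES cells (2.94 and 4.63). The epithelium value exceeded the fiber value in 241 of the 350. Expected contacts come from the surroundings of each loop and the maps differ in depth, which was not used here, and they also rest on anchors of 5, 10 or 25 kb, so these values are not strengths on 1 scale. Fiber CTCF lay at both borders of 58.6% (53.3 to 63.6) of the 350 and of 31.6% (22.5 to 42.6) of the 79 without a corner loop.

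**Figure D4:**
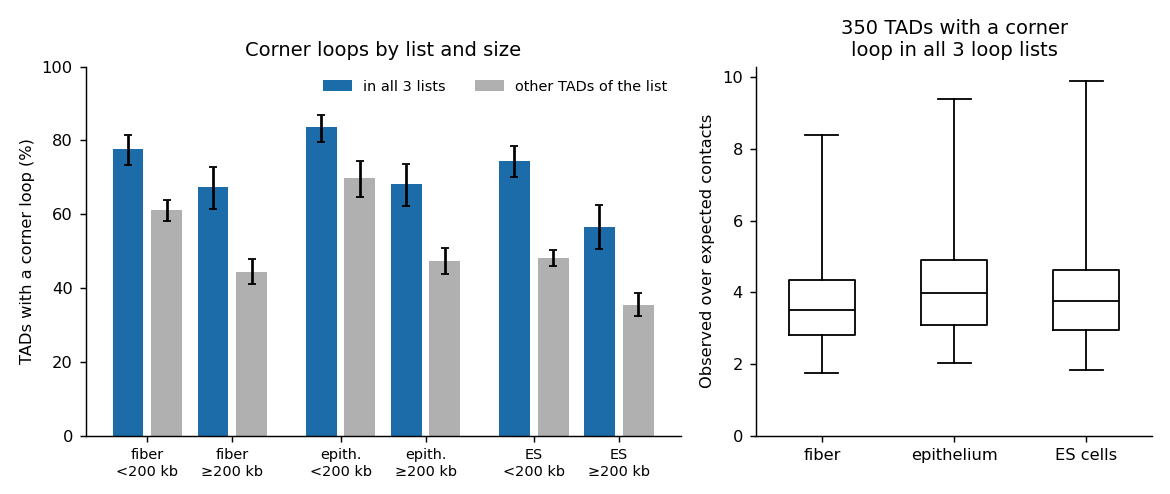
Left, share of TADs with a corner loop (y axis, %) in each list and size class, for TADs in all 3 lists (blue) and the other TADs of that list (gray), with 95% Wilson intervals; right, observed over expected contacts (y axis) of the corner loops of the 350 TADs that have one in all 3 loop lists, with median, quartiles and full range. Blue bars are higher in each pair, and the medians lie between 3.51 and 3.99.

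A corner loop in all 3 lists and CTCF at both borders in both lens lists came together in 108 TADs (16.5%). The 10 of these with the strongest fiber CTCF, ranked by the weaker of the 2 borders, are described next. The TAD of Ngfr, the p75 neurotrophin receptor gene, spans 125 kb (chr11:95530001-95655000). Its fiber CTCF peaks were 12.6-fold on the left and 11.4-fold on the right, and its corner loop measured 3.72 in fiber cells, 4.04 in epithelium and 2.81 in ES cells. The epithelium TAD starts 25 kb further in, at the limit of the rule, though the left CTCF summit stands in both lens lists (95533954 in fiber cells, 95533952 in epithelium).

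A cluster of type I keratin genes, Krt9, Krt14, Krt16, Krt17 and Krt42, which encode intermediate filament proteins of epithelia, filled the 115 kb TAD chr11:100170001-100285000. CTCF there was 10.3-fold on the left and 11.6-fold on the right in fiber cells, and 10.3-fold and 8.68-fold in epithelium. The corner loop was at 3.70, 5.07 and 3.88 observed over expected contacts in fiber cells, epithelium and ES cells. The keratin TAD was narrower in epithelium (80 kb) and wider in ES cells (130 kb).

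Cep83, a gene for a protein of the centriole, and Plxnc1, a semaphorin receptor gene, shared the 340 kb TAD chr10:94620001-94960000. Epithelium listed the same ends, and ES cells moved only the right end, by 5 kb. The corner loop was at 3.58, 3.45 and 4.05 in fiber cells, epithelium and ES cells, and CTCF in fiber cells was 14.3-fold on the left and 10.98-fold on the right. Among the 10, only this TAD and that of Gm52310, chr17:5430001-5745000, were larger than 200 kb. The latter, 315 kb long, runs from within Tmem242 to within Zdhhc14, which encodes a palmitoyltransferase, and its loop was at 4.64, 5.83 and 3.91.

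Among the 10, 4 held no whole protein-coding gene. The 130 kb TAD chr7:49135001-49265000 had both borders inside Nav2, a neuron navigator gene, with CTCF of 10.4-fold and 11.3-fold in fiber cells and a loop at 3.34, 6.39 and 3.17. The 70 kb TAD chr5:113090001-113160000 had both borders inside 2900026A02Rik, with the same ends in epithelium. The 115 kb TAD chr9:60750001-60865000 ended inside Uaca and the 125 kb TAD chr2:93070001-93195000 inside Trp53i11. The last of these had the same ends in ES cells as in fiber cells. Zfp385c (80 kb, chr11:100620001-100700000) and Cttnbp2nl (70 kb, chr3:104990001-105060000) were each the sole whole gene of their TADs.

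**Figure D5:**
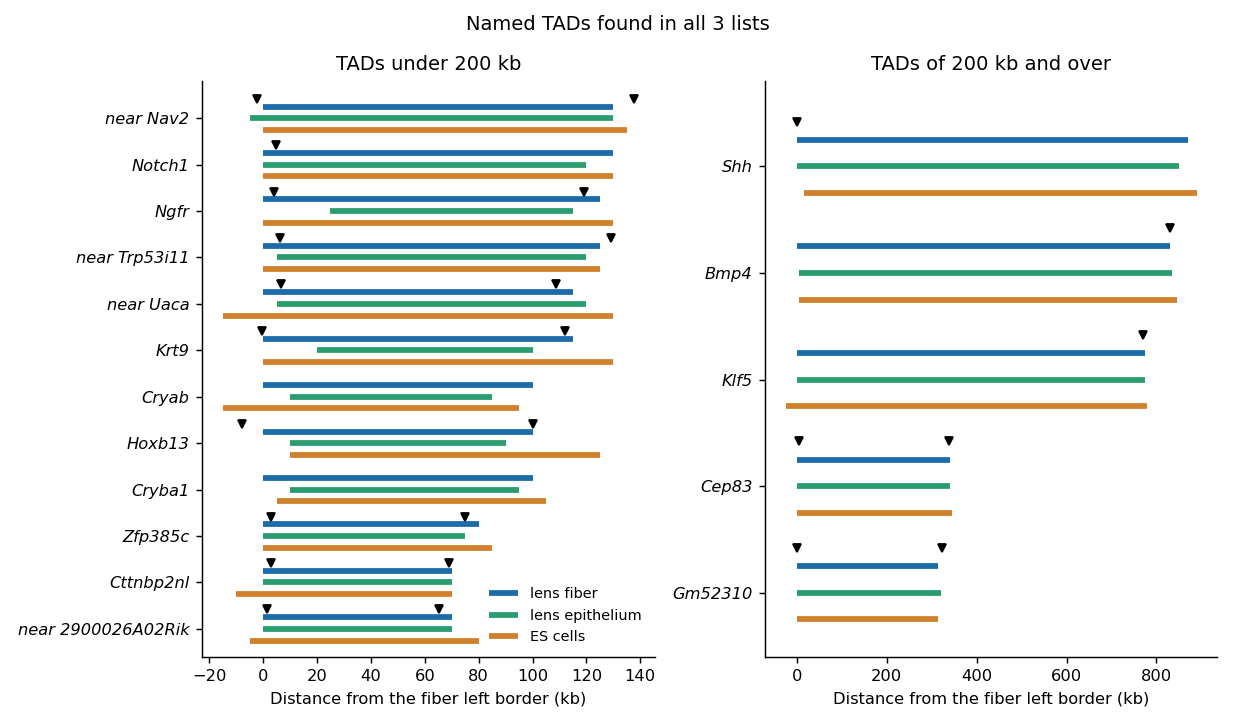
Extent of the named TADs in the 3 lists (x axis, kb from the left border of the fiber TAD; blue, fiber; green, epithelium; orange, ES cells), with triangles at the strongest fiber CTCF summit within 10 kb of each border; labels are a gene inside, or the nearest one. TADs with strong CTCF and loops carry triangles at both ends, while Cryab and Cryba1 carry none.

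The extremes of size were described next. The largest TAD found in all 3 lists, chr18:83005001-84590000, spans 1585 kb and holds Tshz1, Zadh2 and Zfp407. Its size was 1580 kb in epithelium and 1575 kb in ES cells. It had no corner loop in any list. Another, of 1220 kb, holds Tgfb2, a TGF-beta ligand gene, and Lyplal1, with a corner loop at 5.24 in fiber cells and 3.59 in ES cells and none in epithelium. Ends of both TADs thus moved by at most 20 kb over more than 1 Mb.

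The smallest were 60 kb, chr4:62695001-62755000 with its left border in Rgs3 and chr10:127945001-128005000 near Hsd17b6, and 65 kb, chr11:101910001-101975000 with Sost, the sclerostin gene. All had corner loops in all 3 lists, and that of the Sost TAD was at 5.58, 5.01 and 4.10 in fiber cells, epithelium and ES cells. Fiber CTCF was 16.6-fold at its left border and 7.44-fold at its right. For TADs of this length a limit of 25 kb is a large part of the size, and the number under a limit of 10% of the length was 461.

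Genes inside were counted from the gene table of GRCm38.p6. The 655 TADs held 856 whole protein-coding genes, or 5.05 per Mb, as did the other fiber TADs together (5.05 per Mb). By size the groups differed in opposite directions. Under 200 kb the density was 12.04 per Mb against 9.91, and at 200 kb and over it was 2.89 against 3.82. In 207 of the TADs (31.6%) no whole gene was found, in 254 there was 1 gene and in 194 there were 2 or more. A gene inside had a median length of 17.2 kb, against 19.6 kb in the other fiber TADs and 17.5 kb over all genes.

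Gene ends were more frequent at borders than in the middle. A protein-coding gene end lay within 10 kb of 702 of 1310 borders (53.6%, 50.9 to 56.3) and of 23.2% of the midpoints. At the borders of the other fiber TADs the share was 44.9% (43.4 to 46.5). Among these it was 54.1% (51.1 to 57.1) for TADs matched in the ES cell list alone, 41.0% for those matched in the epithelium list alone and 42.1% for those in fiber cells alone. Under 200 kb the intervals separated, with 65.1% (61.7 to 68.4) against 52.7% (50.7 to 54.8). At 200 kb and over they overlapped, at 35.9% (31.8 to 40.1) and 34.4% (32.2 to 36.7). Borders inside a gene body were as frequent in both groups, at 52.7% and 52.4%.

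Lists of lens, signalling, pluripotency, cohesin and Hox genes were then looked up. Of all 20665 protein-coding genes on chromosomes 1 to 19, 4.14% lay whole inside a TAD found in all 3 lists and 14.7% inside another fiber TAD. Members of a list that are neighbours can share a TAD and are not independent. Crystallin genes in TADs of all 3 lists were 2 of 16, growth factor signalling genes 3 of 17, pluripotency genes 1 of 17 and Hox genes 1 of 39. None of 19 lens transcription factor genes, 12 genes of the fiber membrane, cytoskeleton and organelle loss, or 14 genes of CTCF, cohesin and its loaders lay in one. Other fiber TADs held 3, 4, 5, 23, 2, 1 and 4 members of these lists in the same order. The 23 Hox genes of 39 in other fiber TADs are a larger share than the 14.7% of all genes, and they lie in clusters. The counts inside TADs of all 3 lists are too small to set any list apart from all genes.

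Both crystallin TADs lacked a called CTCF summit within 10 kb of their borders, though both held fiber summits inside. Cryab encodes alphaB-crystallin, a small heat shock protein abundant in the lens, and lies at chr9:50745951-50756636, in the TAD chr9:50685001-50785000 of 100 kb with Hspb2, Fdxacb1 and other genes. The TAD measured 75 kb in epithelium and 110 kb in ES cells. No CTCF summit of either lens list was found within 10 kb of its borders, and no loop list had a corner loop. Cryba1 encodes betaA3/A1-crystallin and lies at chr11:77718614-77725293, near the left border of the TAD chr11:77710001-77810000. That TAD also measured 100 kb in fiber cells, with 85 kb in epithelium and 100 kb in ES cells. It too had no CTCF summit of either lens list within 10 kb of its borders, and 3 fiber summits lay inside it. The paper describes a CTCF-bound region that overlaps RNA polymerase II at Cryba1 in fiber chromatin, which a count of summits at borders does not measure. A corner loop was listed in epithelium (2.69) and in ES cells (2.79) and not in fiber cells.

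Signalling genes lay in TADs of very different size. Shh, the hedgehog ligand gene, lies 6.84 kb from the left border of an 870 kb TAD (chr5:28450001-29320000) whose right border falls in Lmbr1, the gene known to hold a distant limb enhancer of Shh. Fiber CTCF at the left border was 9.59-fold and epithelium CTCF 8.82-fold, with no summit of either list at the right border. The sole corner loop was in epithelium, at 4.18. Bmp4, a BMP ligand gene with a role in lens induction, was the sole whole protein-coding gene of the 830 kb TAD chr14:45895001-46725000. That TAD had CTCF at the right border (8.24-fold in fiber cells, 10.1-fold in epithelium) and no corner loop in any list. Notch1, a receptor gene that acts in lens epithelium, was the sole whole gene of a 130 kb TAD, chr2:26445001-26575000, whose ends were the same in ES cells. Fiber CTCF was listed at its left border alone (5.81-fold) and epithelium CTCF at its right border alone (4.57-fold). Its corner loop stood at 4.55 in fiber cells, 3.86 in epithelium and 5.44 in ES cells.

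Klf5, which takes part in ES cell self-renewal, was the sole whole protein-coding gene of the 775 kb TAD chr14:99125001-99900000. Epithelium listed the same ends, and ES cells a TAD of 805 kb whose left end lies 25 kb away, at the limit. Its corner loop was found in fiber cells (5.45) and epithelium (6.03) and not in ES cells. Hoxb13, at chr11:96194316-96196610, lay apart from the rest of its cluster in a 100 kb TAD, chr11:96135001-96235000, which ends between Hoxb13 and Hoxb9. CTCF of fiber cells was 13.9-fold at the left border and 7.90-fold at the right, where no epithelium summit was listed. The corner loop was at 2.15 in fiber cells (25 kb anchors) and 2.71 in epithelium (10 kb anchors), with none in ES cells, whose TAD ended 25 kb further right.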

How the data were processed

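Hi-C libraries of ES cells, lens epithelium and lens fibers (Arima kit, 2 replicates each) and CTCF ChIP-seq of both lens tissues were used (1 sample and 1 peak list each per the labels, 2 biological replicates per the study's methods). The authors aligned reads with BWA, merged replicates, called loops with HiCCUPS (juicer_tools 2.13.06 in the file header) and TADs with Arrowhead of Juicer, and called peaks with MACS2. The build is mm10 per the labels, and versions of BWA and MACS2 are not given in the sources used here. In the deposited loop lists, observed contacts are raw counts of the merged map, and the expected contacts are a signal made from the surroundings of each loop. In the deposited peak lists, MACS2 gave a fold enrichment and the −log10 of a q-value.

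From these lists, TAD matches, summits at borders, corner loops (observed contacts divided by the donut expectation, the highest where several fit) and gene positions were computed with Python 3.11.15, numpy 2.4.6 and pandas 2.3.3, and drawn with matplotlib 3.10.9. Intervals are 95% Wilson intervals for shares, log intervals for ratios and Poisson intervals for densities. Computations were tested on simulated data of 1000 TADs, where 8 of 8 checks gave the known answer. The depth of the maps was not used.

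The TADs and gene lists were chosen with earlier results of these data known. TADs named were the 3 largest, the 3 smallest, the 10 with the strongest CTCF and loops, and those with whole genes of the lists, with up to 5 genes inside or nearest their borders. TADs just inside and just outside the limit were counted. Of the largest TADs, 1 is not reported here. The TADs with identical ends and the promoters were chosen after their values were seen. Alternatives varied the limit, the summit distance, the peaks, the loops and TAD size. A search of CTCF motifs under all border summits was not run, since no genome sequence was used here, and promoters took its place. The gene table and promoters are RefSeq's for GRCm38.p6, and opposite-strand promoters that overlap by at least 50 bases (1588 pairs) read the same bases. Expression and CTCF of ES cells were not analysed here, so the tissues were not checked against markers.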

Additional observations from a re-analysis of the deposited data

How the results depend on the processing

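Of 76 values under alternative settings, 30 stayed within tolerance (1.5 times for counts of TADs and median sizes, the 95% interval for shares and ratios), and 21 of 22 ratios to the other fiber TADs stayed above 1. The exception was fiber corner loops with 25 kb anchors alone, at 0.653 (5.50, 5.80 and 3.05% of the 655 TADs with such a loop in fiber cells, epithelium and ES cells). Ends within 10 kb gave 322 TADs, with 53.7% and 32.6% having fiber and epithelium CTCF at both borders. By size, 258 TADs of at least 200 kb were found (CTCF 36.4 and 20.9%; corner loops 67.4, 68.2 and 56.6%; fiber loop ratio 1.52) and 397 smaller ones (55.4 and 30.5%; 77.6, 83.6 and 74.6%; 1.27). A limit of 10% of the length raised the median size to 385 kb. A summit distance of 5 kb gave 23.5 and 10.4% with fiber and epithelium CTCF, 25 kb gave 82.4 and 51.0% (ratios 1.24 and 1.37), and the stronger 50% of peaks 24.6 and 10.2%. Corner loops within 10 kb were found for 36.0, 37.9 and 28.1% (fiber ratio 1.51), within 50 kb for 84.1, 87.6 and 80.9% (1.24), and with 5 or 10 kb anchors for 68.1% of fiber and 71.9% of epithelium TADs (1.49). The border to middle ratio of fiber CTCF was 10.4 within 5 kb and 10.3 within 25 kb of borders of larger TADs. Gene ends lay near 34.9% of borders within 5 kb, 75.7% within 25 kb and 67.6% with all genes.

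No paired analysis was possible because the authors merged the replicates before calling. Shares depend on the number of peaks and loops listed, and so on a depth that the lists do not give.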

Other observations

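The 3 TADs with the most whole genes were picked after their gene numbers were seen, and how their genes compare with the other fiber TADs was not counted. The TAD with the most whole genes, chr7:140170001-140810000, held 22, of which 18 were Olfr (olfactory receptor) genes. Its 640 kb in fiber cells compared with 635 kb in epithelium and 645 kb in ES cells. Fiber CTCF was listed at its right border (7.15-fold) and not at its left. The next, chr10:23810001-24135000, held 17 genes, of which 15 were Taar genes, for trace amine-associated receptors. Its ends moved by at most 5 kb between the lists. Fiber CTCF was 11.3-fold on the left and 12.4-fold on the right, and epithelium CTCF 9.23-fold and 8.13-fold. A corner loop at 3.47 in fiber cells and 4.05 in epithelium was not listed in ES cells. The last, chr17:34995001-35110000, held 13 genes of mixed kinds, such as Clic1 and Ddah2, in 115 kb, with 105 kb in epithelium and 120 kb in ES cells. No CTCF summit of either lens list lay within 10 kb of its borders, and a corner loop was listed in ES cells alone, at 2.33.

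Neighbours of TADs found in all 3 lists were counted within 25 kb. Of the 655, 206 (31.5%) met any other fiber TAD, against 26.4% of the other fiber TADs, and 74 of the 655 met one that was itself found in all 3 lists, in 39 pairs. In the fiber list 2 of the 655 held a smaller TAD, and 10 lay inside a larger one. The share that held another was 0.305%, against 3.29% among the other fiber TADs, and at 200 kb and over it was 0.775% against 7.02%.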
